A study of Mus with 8 samples.

Results

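Wnt ligands are secreted, lipid-modified proteins that carry signals over short distances. They bind Frizzled (Fzd) receptors together with co-receptors such as LRP5 and LRP6, and the signal either stabilizes beta-catenin, which then acts on genes with TCF and LEF factors, or runs through branches that set cell polarity and movement. Secreted frizzled-related proteins (Sfrp) resemble the ligand-binding part of the receptors and can bind Wnt proteins, while Dickkopf proteins (Dkk) mostly act on the LRP co-receptors. In the uterus, Wnt ligands of the epithelium and the stroma are known for their roles in duct and gland formation, implantation and the change of stroma into decidua.

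The genes described here are those of the count table whose symbol begins with Wnt or Fzd and a digit, with Dkk or with Sfrp. There were 38 of them among 31269 symbols: 19 Wnt, 10 Fzd, 5 Dkk (Dkkl1, a related gene, included) and 4 Sfrp. The rule used names only and no measured value. Gene levels were compared between 4 control libraries and 4 libraries whose label gives a myometrial deficiency of PGR, the receptor for progesterone. The myometrium is the muscle layer of the uterus. All 8 were RNA-seq libraries of uterine tissue at day 6 of pseudopregnancy, the progesterone-dominated state after a sterile mating. The labels speak of tissue around implantation sites, although a pseudopregnant uterus holds no embryo. They give no strain, age, allele or Cre driver, nor do they say whether each library came from its own animal, so each p-value is set against a spread between libraries that may be in part technical.

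Library totals ran from 70296369 to 72364750 counts. Pgr itself was at 131 to 180 CPM (counts scaled to a common library size by the TMM method) in the controls and at 160 to 187 CPM in the other group, so its values overlapped (log2 difference 0.18 ± 0.11 SE; adjusted p = 0.338 in edgeR). These counts were per gene and from uterine tissue, not myometrium alone, so they cannot show whether Pgr was lost in the muscle layer. The second group is called "labelled deficient" throughout. Library 2 labelled deficient stood apart: it was the highest or the lowest of the 8 libraries for 56.7% of all genes tested and for 18 of the 29 family genes tested (62.1%). Summed levels of 12 epithelial markers were 3741 CPM in library 2 and 2735 CPM in library 3 labelled deficient. They were 1493 and 1545 CPM in libraries 1 and 4 and 1404 to 1612 CPM in the controls. Of these 12 markers, 9 had a positive and 3 a negative group difference. In libraries 2 and 3 Elf3 was at 586 and 413 CPM, against 37.8 to 62.0 CPM in the controls. Krt18 and Cldn4 lay within their control ranges in both libraries. The 9 smooth muscle markers, all detected, summed to 4552 to 6741 CPM in the controls and 4545 to 5309 CPM in the group labelled deficient. All 9 had a negative log2 difference (median -0.23), and each overlapped between the groups. In whole tissue, fewer cells of a type and less RNA per cell cannot be told apart. Where leaving out libraries 2 and 3 labelled deficient altered the difference of a family gene by over 1.5 times, the value without them is given too. It is also given for the family genes whose groups did not overlap. These libraries were picked from their values in these data, and 2 libraries labelled deficient remain without them, so such values are a description and no independent check.

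None of the 38 genes passed the test across all genes. After a filter on low counts 29 were tested, 13 Wnt, 9 Fzd, 3 Dkk and 4 Sfrp, and edgeR's quasi-likelihood test called 0 of them at an adjusted p of 0.05, as it called 0 of all 17629 genes (0%). At an unadjusted p under 0.05 4 had higher and 4 had lower levels in the group labelled deficient, or 27.6% of the 29, against 24.8% of all genes (13.0% higher and 11.8% lower). DESeq2, run as an alternative, called 5 of the 29 (17.2%), 3 higher and 2 lower, against 14.2% of all genes (7.43% higher and 6.72% lower), and limma-voom called 0, against 2 of all genes (0.0113%). The shares of family genes past these thresholds were near those of all genes. The median log2 difference was 0.00 over the 29 genes and 0.01 over all genes. The median size of the difference, whatever its sign, was 0.41 against 0.20.

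**Figure D1:**
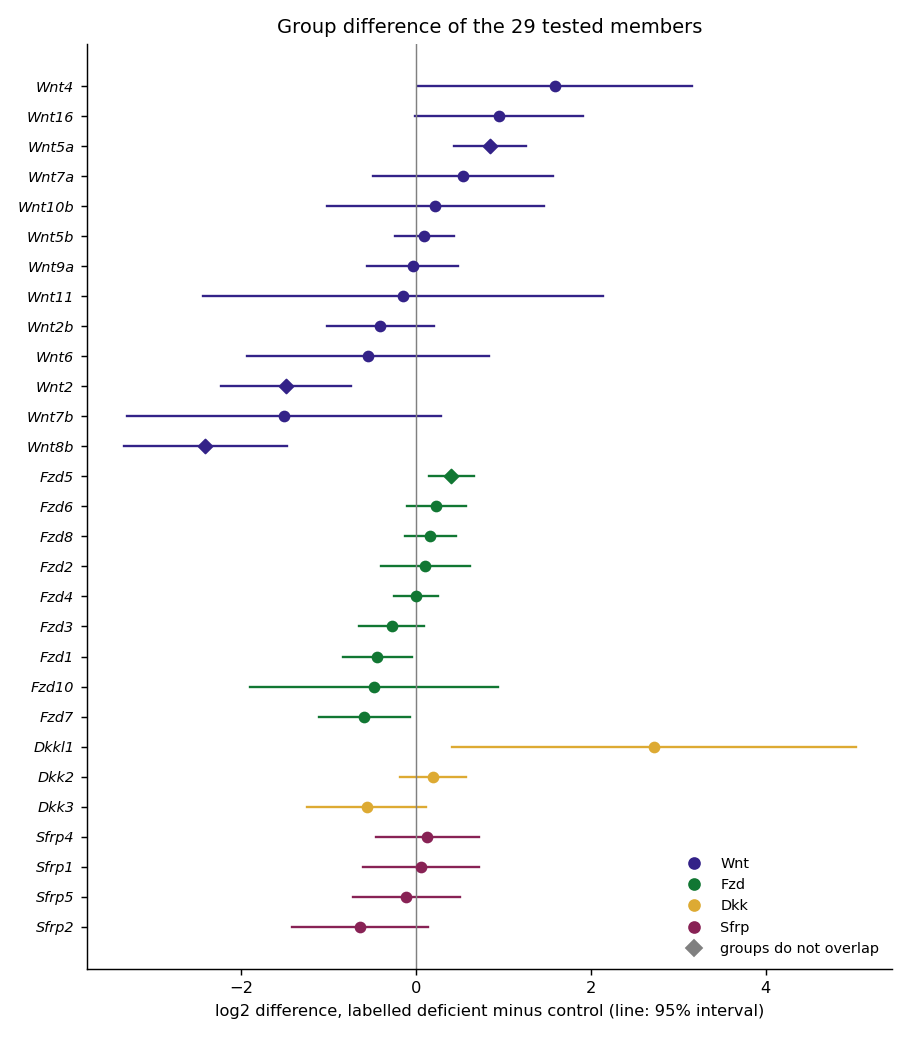
Log2 difference (labelled deficient minus control) of the 29 tested genes on the horizontal axis, ordered by size within each family, with points for the edgeR estimate, lines for its 95% interval and diamonds for genes whose groups did not overlap. Wnt genes spread from -2.41 (Wnt8b) to 1.59 (Wnt4), while the 9 Frizzled genes lie between -0.60 (Fzd7) and 0.41 (Fzd5), and Dkkl1 has the widest interval.

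Among the ligands, 3 separated the groups completely: Wnt5a upward, and Wnt2 and Wnt8b downward. With the receptor Fzd5, upward, these were 4 of the 29 tested genes (13.8%) whose 4 values in one group all lay beyond the 4 in the other, against 16.3% of all genes (7.61% upward and 8.66% downward).

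Wnt5a, a ligand mostly known for signalling without beta-catenin and expressed in uterine stroma and epithelium, lies on chromosome 14 from 28504543 to 28527448 (GRCm38.p6). It measured 145, 188, 157 and 133 CPM in control libraries 1 to 4 and 306, 364, 229 and 220 CPM in libraries 1 to 4 labelled deficient. Every library labelled deficient lay above the highest control, with libraries 1 and 2 the highest. The means were 156 ± 23.6 and 280 ± 68.0 CPM (SD, n = 4), a 1.80-fold higher level with a 95% interval from 1.35 to 2.40, or 0.85 ± 0.18 (SE) on the log2 scale. The adjusted p was 0.0906 in edgeR and 0.000941 in DESeq2. Without libraries 2 and 3 labelled deficient the log2 difference was 0.76 ± 0.17 (SE). Beside it, the summed level of 10 stromal fibroblast markers, all detected, was 10055 to 11890 CPM in the libraries labelled deficient and 7855 to 10007 CPM in the controls, a sum made up mostly of collagens. Of these 10 markers, 4 had a positive and 6 a negative difference. The 5 macrophage markers, all detected, also summed higher without overlap, at 509 to 741 CPM against 374 to 489 CPM. The part of either cell type in the Wnt5a result was not tested.

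Wnt2, a ligand known for beta-catenin signalling and found in mesenchyme, lies on chromosome 6 from 17985474 to 18032772. Its counts were 257, 139, 220 and 247 in the controls (3.54, 1.96, 3.01 and 3.48 CPM) and 61, 42, 97 and 105 in the libraries labelled deficient (0.843, 0.623, 1.38 and 1.44 CPM). All libraries labelled deficient lay below the lowest control, library 2 of that group being the lowest. The control level was 2.80-fold the other (95% interval 1.67 to 4.69), with a log2 difference of -1.49 ± 0.32 (SE), an adjusted p of 0.0906 in edgeR and 0.000835 in DESeq2. Leaving out libraries 2 and 3 gave -1.39 ± 0.35 (SE). Of 5 markers of mesothelium, the outer lining, 4 had a negative difference. Without Krt19, which epithelium shares, the other 4 summed to 291 to 363 CPM in the controls and 138 to 234 CPM in the other group. Wt1 made up most of that sum, at 254 to 271 CPM in the controls and 103 to 191 CPM in the other group. Upk1b was also lower without overlap, while Msln and Upk3b overlapped between the groups. With Krt19 the 5 markers, all detected, summed to 415 to 476 CPM against 267, 672, 578 and 361 CPM. Hand2 was lower too (-0.75 ± 0.25 SE), the only 1 of the 10 stromal markers whose groups did not overlap. Of those 10 markers, 4 had a positive and 6 a negative difference. Their sum was higher in the group labelled deficient, at 10055 to 11890 CPM against 7855 to 10007 CPM. The part of either cell type in the Wnt2 result was not tested.

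Wnt8b, a ligand best known from the embryonic forebrain, lies on chromosome 19 from 44493472 to 44514273 and was low throughout. It had 57, 56, 53 and 87 counts in the controls and 14, 5, 8 and 20 in the libraries labelled deficient, or 0.882 ± 0.232 against 0.164 ± 0.0885 CPM (SD, n = 4). The groups did not overlap, and the highest library labelled deficient was at 0.274 CPM and the lowest control at 0.725 CPM. The log2 difference was -2.41 ± 0.41 (SE), a control level 5.32-fold the other (95% interval 2.78 to 10.2). The adjusted p was 0.0906 in edgeR and 3.08e-05 in DESeq2. Without libraries 2 and 3 it was -1.90 ± 0.38 (SE).

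**Figure D2:**
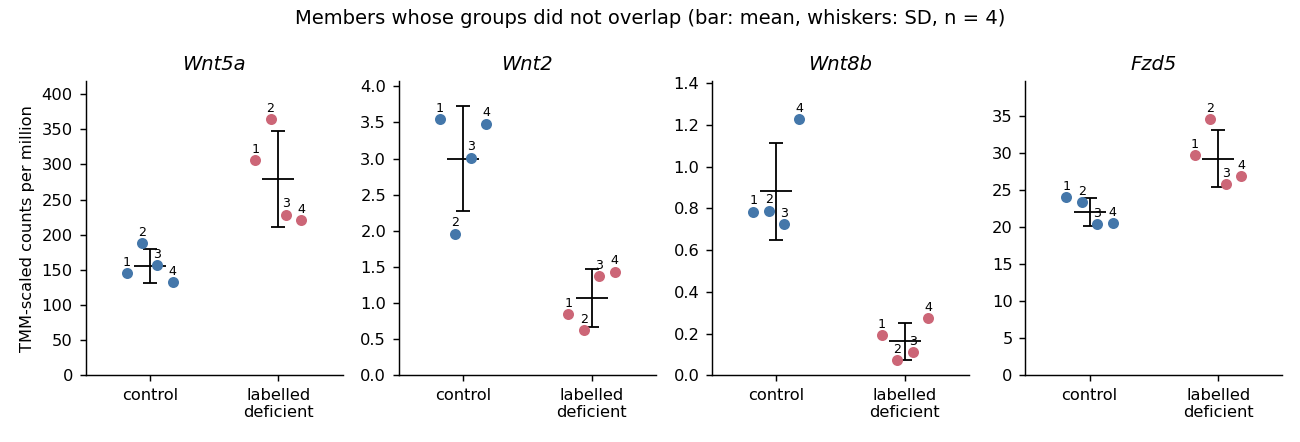
TMM-scaled CPM per library (numbered points, linear axis from 0) of Wnt5a, Wnt2, Wnt8b and Fzd5 in control and labelled-deficient libraries, with the mean as a bar and the SD as whiskers (n = 4). Wnt5a and Fzd5 lie higher and Wnt2 and Wnt8b lower in all 4 libraries labelled deficient than in any control, with lowest Wnt5a values of 220 CPM there against at most 188 CPM in the controls.

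The paralogs of Wnt5a and Wnt2 overlapped between the groups. Wnt5b, the paralog of Wnt5a, measured 18.3, 16.0, 18.6 and 21.9 CPM in the controls and 17.6, 25.2, 19.3 and 17.8 CPM in the libraries labelled deficient. Its groups overlapped, with library 2 labelled deficient above the rest, and the log2 difference was 0.09 ± 0.15 (SE; 95% interval -0.25 to 0.43), and -0.077 without libraries 2 and 3. Wnt2b, the paralog of Wnt2, was at 8.31 to 10.6 CPM in the controls and at 8.60, 3.81, 6.44 and 9.60 CPM in the other group, so that only libraries 2 and 3 lay below the controls (log2 difference -0.41 ± 0.27 SE, and -0.05 ± 0.15 without them). The log2 ratio of paralogs within each library, which removes the scaling, is given for the 3 pairs with both genes tested. The pairs were picked after Wnt5a and Wnt2 were seen to separate the groups, so the ratios are a description with no test. The log2 ratio of Wnt5a to Wnt5b was 3.05 ± 0.39 in the controls and 3.79 ± 0.25 in the libraries labelled deficient (SD, n = 4). The ratio of Wnt2 to Wnt2b was -1.69 ± 0.33 against -2.73 ± 0.47. For Wnt7a to Wnt7b it was -1.66 ± 1.49 against 0.94 ± 1.82, and the groups overlapped. St7l, with 15450 counts in all, overlaps 4524 bases of the Wnt2b span, and Fbxl14 overlaps 4219 bases of Wnt5b, so without the strand setting the reads of these 2 Wnt genes are less certain.

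Several other ligands differed widely among the 4 libraries labelled deficient. Wnt4, a ligand of the stroma that is needed for decidua to form, measured 9.27, 6.84, 7.52 and 5.95 CPM in the controls and 4.80, 43.4, 34.5 and 6.27 CPM in libraries 1 to 4 labelled deficient. Libraries 2 and 3 were far above every control, library 1 was below them all, and library 4 lay among them. The log2 difference of 1.59 ± 0.68 (SE; adjusted p = 0.197 in edgeR) thus rested on libraries 2 and 3, and it was -0.41 ± 0.22 (SE) without them. Wnt16, another ligand, went the same way in library 2, with 14.0, 15.3, 14.2 and 9.01 CPM in the controls and 16.4, 51.1, 20.5 and 13.2 CPM in the other group. Its log2 difference was 0.95 ± 0.42 (SE), and 0.18 ± 0.22 without libraries 2 and 3.

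Wnt11 and Wnt6 were low in the same libraries. Wnt11, a ligand of epithelium and of branching ducts in other organs, measured 41.2, 25.01, 36.6 and 16.3 CPM in the controls. In libraries 1 to 4 labelled deficient it measured 57.9, 0.489, 8.98 and 40.2 CPM, so library 1 was the highest of all 8 and library 2, with 33 counts, the lowest. The group difference of -0.15 ± 1.00 (SE) on the log2 scale has a 95% interval from -2.44 to 2.14, and it was 0.72 ± 0.35 without libraries 2 and 3. Wnt6 was at 6.46, 3.27, 2.45 and 3.15 CPM in the controls and at 4.71, 0.578, 1.52 and 3.65 CPM in the other group, again with libraries 2 and 3 below every control (log2 difference -0.55 ± 0.60 SE, and 0.13 ± 0.40 without them). The 6 markers of uterine glands, all detected, summed to 334, 72.6, 115 and 1056 CPM in libraries 1 to 4 labelled deficient and to 171 to 1153 CPM in the controls. That sum was made up mostly of the proteases Prss28 and Prss29. The other 4 gland markers summed to 82.6, 66.2, 28.6 and 106 CPM against 28.6 to 110 CPM. Lif among them was above every control in all 4 libraries labelled deficient, at 19.3, 50.2, 12.6 and 6.64 CPM against 2.33 to 3.74 CPM. In library 2 the markers Spink3 (0.816 CPM) and Cxcl15 (0.460 CPM) lay below every control and Foxa2 (14.7 CPM) within their range. In library 3 Spink3 (1.23 CPM) and Foxa2 (7.99 CPM) lay below every control and Cxcl15 (6.81 CPM) within their range. The part of cell makeup in the Wnt4, Wnt16, Wnt11 and Wnt6 values was not tested.

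Wnt7b, an epithelial ligand, had the opposite pattern across the group labelled deficient. It measured 48.6, 51.9, 19.6 and 82.6 CPM in the controls and 2.38, 20.8, 40.4 and 7.63 CPM in libraries 1 to 4 labelled deficient. Libraries 1 and 4, whose epithelial marker sums were within or near the control range, lay below every control, while libraries 2 and 3 lay inside the control range. The log2 difference was -1.51 ± 0.78 (SE; adjusted p = 0.265 in edgeR) over all libraries and -3.34 ± 0.72 (SE; adjusted p = 0.139 in edgeR) without libraries 2 and 3. DESeq2 called Wnt7b only in the fits without library 3 labelled deficient, alone or with library 2. Its paralog Wnt7a, a ligand of the luminal epithelium needed for the uterus to form its layers, ranged from 7.32 to 26.6 CPM in the controls and from 11.2 to 35.9 CPM in the other group, with library 3 labelled deficient the highest (0.54 ± 0.45 SE). The control libraries differed among themselves for both genes: library 4 was the lowest control for Wnt7a and the highest for Wnt7b.

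The other 2 tested ligands gave no separation. Wnt9a measured 23.7 to 33.9 CPM in the controls and 19.1, 24.5, 27.9 and 40.5 CPM in the other group (-0.04 ± 0.23 SE, 95% interval -0.56 to 0.48, and 0.053 without libraries 2 and 3). Wnt10b was low, with 7 to 35 counts in the controls and 16 to 52 in the libraries labelled deficient (0.22 ± 0.54 SE, and 0.72 ± 0.58 without libraries 2 and 3). The 6 ligands below the filter were Wnt1 (6 counts over all 8 libraries), Wnt3 (8), Wnt3a (19), Wnt8a (5), Wnt9b (25) and Wnt10a (40). A count of 0 in a library allows up to 3 counts, or 0.0410 to 0.0445 CPM, which covers counting error only. Several ligand genes lie side by side in the genome: Wnt6 and Wnt10a are 6696 bases apart on chromosome 1, Wnt3a and Wnt9a 16097 bases apart on chromosome 11, and Wnt10b and Wnt1 11650 bases apart on chromosome 15, and the spans of Wnt9b and Wnt3 overlap. In each of the first 3 pairs 1 gene passed the filter and its neighbour did not.

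**Figure D3:**
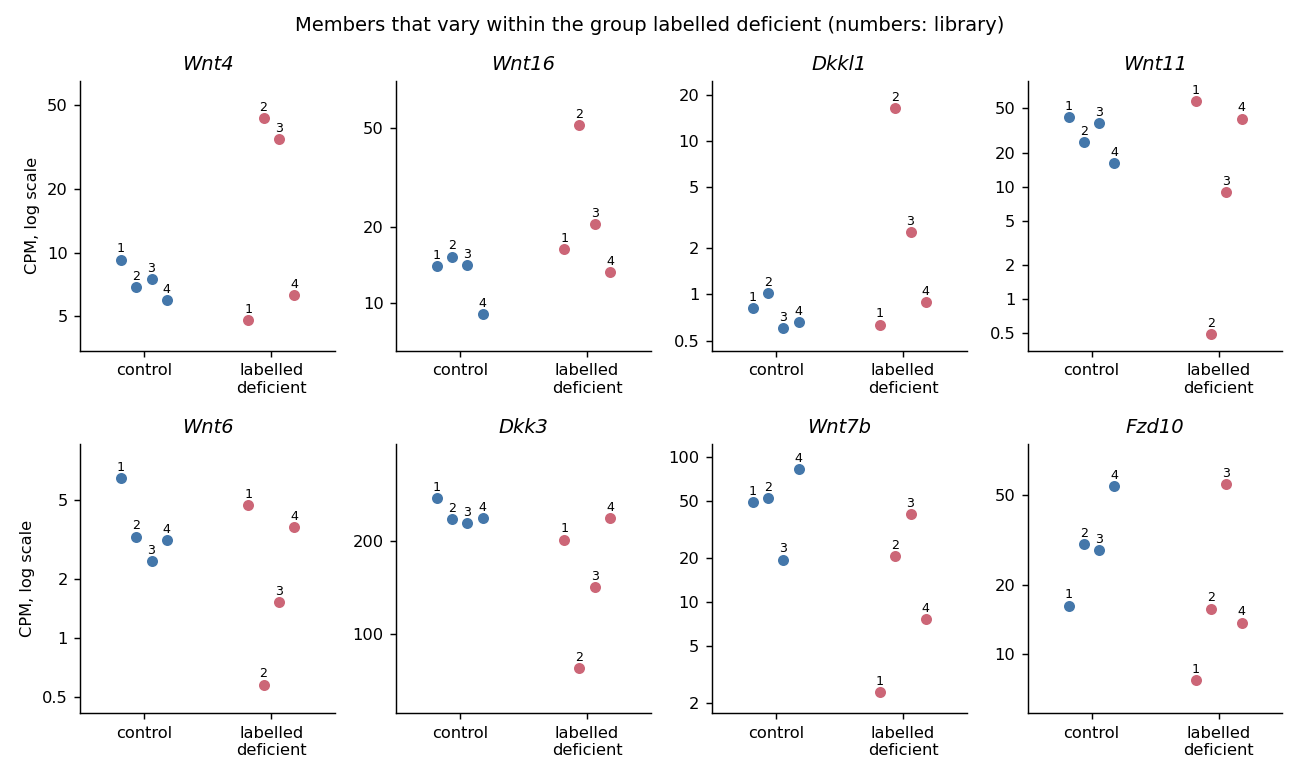
CPM on a log axis, by library (numbered points), of 8 genes that vary within the group labelled deficient. Wnt4, Wnt16 and Dkkl1 are highest in libraries 2 and 3 of that group, Wnt11, Wnt6 and Dkk3 are lowest in the same libraries, and Wnt7b and Fzd10 are lowest in library 1 of that group, at 2.38 and 7.66 CPM.

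Of the 10 Frizzled receptor genes 9 were tested, 5 with a positive and 4 with a negative difference. The median size of their difference was 0.28 on the log2 scale, and that of the 13 Wnt genes 0.55, a contrast that was not tested. Fzd5, a receptor that can signal through beta-catenin, lies on chromosome 1 from 64730558 to 64737750. It was at 24.0, 23.4, 20.3 and 20.5 CPM in the controls and at 29.7, 34.5, 25.8 and 26.8 CPM in libraries 1 to 4 labelled deficient. No value of one group reached the other, with library 2 labelled deficient the highest. The level was 1.32-fold higher (95% interval 1.11 to 1.58), a log2 difference of 0.41 ± 0.11 (SE) with an adjusted p of 0.105 in edgeR and 0.0156 in DESeq2. It was 0.36 ± 0.11 without libraries 2 and 3. The DESeq2 call was lost without control library 3 (adjusted p = 0.0718) or control library 4 (0.0976).

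Fzd1 and Fzd7, receptors of one subgroup with Fzd2, had unadjusted p under 0.05 in the lower direction, and both overlapped between groups. Fzd1 measured 166, 125, 137 and 203 CPM in the controls and 129, 90.7, 115 and 130 CPM in the other group (log2 difference -0.44 ± 0.17 SE; adjusted p = 0.166 in edgeR). Fzd7 measured 88.9, 67.5, 75.0 and 96.2 CPM in the controls and 51.2, 35.003, 52.9 and 77.6 CPM in the other group, where library 4 alone lay within the control range (-0.60 ± 0.23 SE; adjusted p = 0.162 in edgeR). Without libraries 2 and 3 the differences were -0.28 ± 0.19 and -0.34 ± 0.20, smaller by over 1.5 times for both. Fzd2 did not share this direction: it was at 107 to 132 CPM in the controls and at 123, 77.6, 118 and 181 CPM in the other group, where library 2 was the lowest and library 4 the highest of all 8 (0.10 ± 0.22 SE, and 0.39 ± 0.16 without libraries 2 and 3).

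Of the other receptors, Fzd6 was at 103 to 154 CPM in the controls and at 168, 129, 168 and 173 CPM in the libraries labelled deficient (0.23 ± 0.15 SE). Fzd3 was at 25.7 to 32.2 CPM in the controls and lowest in libraries 2 and 3 of the other group, at 17.7 and 21.1 CPM (-0.28 ± 0.16 SE, and -0.03 ± 0.10 without them). Fzd4, the receptor of the vessel factor norrin, differed little, at 12.2 to 15.4 CPM in the controls and 12.8 to 15.6 CPM in the other group (0.00 ± 0.11 SE, 95% interval -0.25 to 0.25, and 0.086 without libraries 2 and 3). Fzd8 ranged from 10.2 to 12.1 CPM against 10.8 to 15.3 CPM (0.16 ± 0.13 SE). Fzd10 had a wide range in both groups. It measured 16.3, 30.4, 28.6 and 54.4 CPM in the controls and 7.66, 15.8, 55.8 and 13.7 CPM in the other group, so 3 libraries labelled deficient lay below all controls and library 3 above them all (-0.48 ± 0.62 SE, and -1.60 ± 0.49 without libraries 2 and 3). DESeq2 called Fzd10 without library 3 labelled deficient, alone or with library 2, and not over all libraries. Fzd9 did not pass the filter, with 1 to 14 counts per library.

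Of the 3 Dickkopf genes tested, Dkkl1 alone had an unadjusted p under 0.05, and its difference rested on libraries 2 and 3 labelled deficient. Dkkl1, a Dickkopf-like gene best known from testis, measured 0.813, 1.02, 0.602 and 0.663 CPM in the controls and 0.636, 16.4, 2.54 and 0.889 CPM in libraries 1 to 4 labelled deficient. Library 2 had 1106 counts, library 3 had 179, and libraries 1 and 4 were within the control range. The log2 difference was 2.72 ± 1.01 (SE), with an adjusted p of 0.155 in edgeR and 0.0213 in DESeq2. It was 0.81 without library 2 (adjusted p = 0.395 in DESeq2) and -0.02 ± 0.32 (SE) without libraries 2 and 3. Dkk3, a member that does not act like the other inhibitors, measured 275, 235, 229 and 238 CPM in the controls and 202, 77.9, 142 and 237 CPM in the other group. Libraries 1 to 3 lay below every control and library 4 within their range (-0.57 ± 0.30 SE, and -0.15 ± 0.10 without libraries 2 and 3). Dkk2, an antagonist of LRP signalling, was at 26.2 to 43.5 CPM in the controls and 32.4 to 44.2 CPM in the other group (0.19 ± 0.16 SE). Dkk1, known as a gene of decidua, had 1 to 5 counts per library and Dkk4 at most 2, so neither was tested. The 6 decidual cell markers summed to 493 to 614 CPM in the controls and to 427, 1002, 563 and 462 CPM in libraries 1 to 4 labelled deficient, with Prl8a2, a defining marker, at 0.0445 CPM or less in every library. Alpl alone gave 548 CPM of the sum in library 2. Without Alpl the sum was 380, 454, 431 and 431 CPM, below the 477 to 571 CPM of the controls. Gja1 and Hand2, a stromal marker as well, made up most of that sum. Gja1 overlapped, at 279 to 340 CPM in the controls and 212 to 330 CPM in the other group. Hand2 did not, at 161 to 229 CPM against 63.2 to 139 CPM. Bmp2 (-0.10 ± 0.20 SE) and Cebpb (0.30 ± 0.33 SE) overlapped.

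None of the 4 secreted frizzled-related genes had an unadjusted p under 0.05. Sfrp2 measured 132, 97.0, 139 and 123 CPM in the controls and 98.7, 30.5, 78.8 and 106 CPM in the other group, with libraries 2 and 3 labelled deficient below every control (-0.64 ± 0.34 SE, and -0.26 ± 0.14 without them). Sfrp4, a gene of uterine stroma, went the other way in library 2: it was at 144, 149, 116 and 205 CPM in the controls and at 153, 217, 201 and 101 CPM in the other group (0.13 ± 0.26 SE, and -0.27 ± 0.25 without libraries 2 and 3). Sfrp1 was at 20.1 to 32.7 CPM in the controls and at 37.6, 21.8, 14.6 and 32.6 CPM in the libraries labelled deficient (0.05 ± 0.29 SE, and 0.46 ± 0.19 without libraries 2 and 3). Sfrp5 was low, with 23 to 46 counts in the controls and 31 to 40 in the other group (-0.11 ± 0.26 SE).

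**Figure D4:**
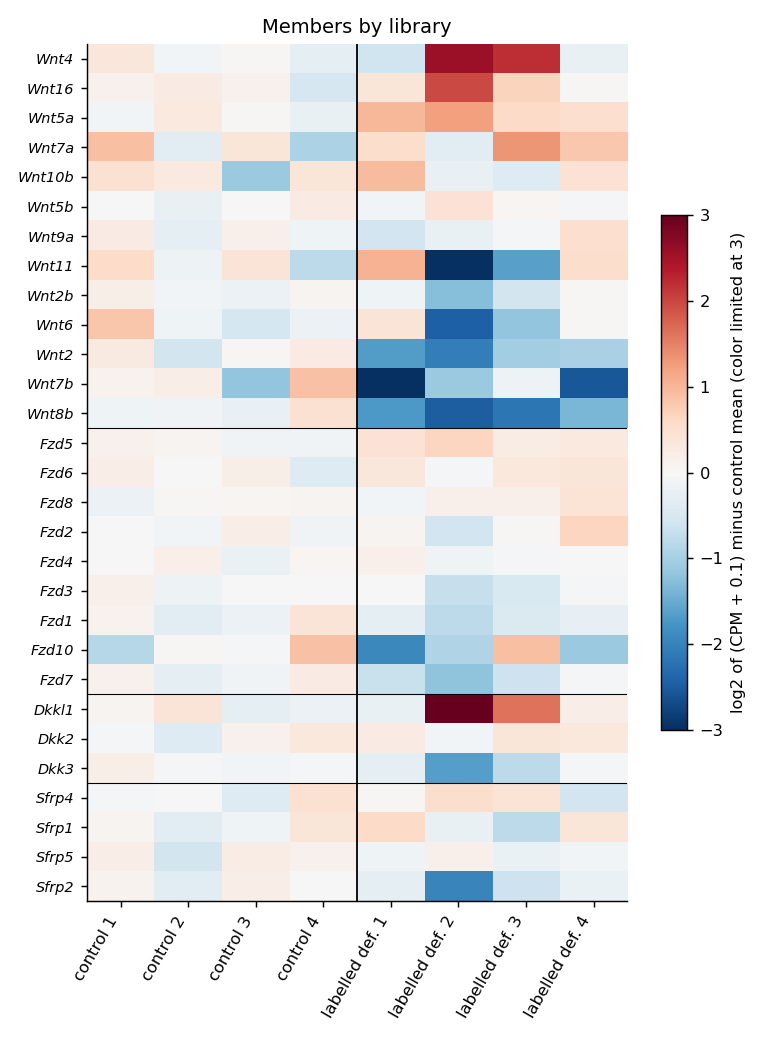
Heat map of the 29 tested genes (rows, by family) in the 8 libraries (columns), with color for log2 of (CPM + 0.1) minus the control mean, limited at 3. Library 2 labelled deficient has the strongest colors, with 13 genes over 1 log2 unit from the control mean, against 5, 7 and 3 in libraries 1, 3 and 4 of that group and at most 2 in any control.

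The heat map shows how the genes differed from library to library. In library 2 labelled deficient 44.8% of the 29 genes lay over 1 log2 unit from the control mean, against 16.5% of all genes. In libraries 1, 3 and 4 of that group the shares were 17.2%, 24.1% and 10.3%, against 7.10%, 7.86% and 3.79% of all genes. Each control is part of the control mean, so its own distance is understated, but control values also spread more for the family genes: the median distance was 0.13 to 0.24 log2 units for them and 0.10 in each control over all genes. Library 1 labelled deficient was outside the control range for 16 of the 29 genes and library 4 for 11, against 20 in library 2 and 21 in library 3. In the same libraries, 59.6%, 49.6%, 75.6% and 61.3% of all genes in libraries 1, 4, 2 and 3 lay outside that range.

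The rest of the pathway was read from 4 lists of known components. Of 18 genes for Wnt secretion and co-receptors all were tested, and 3 higher and 1 lower had an unadjusted p under 0.05 (22.2%, against 24.8% of all genes; median log2 difference 0.00). Lrp5, the co-receptor, was at 98.6 to 108 CPM in the controls and 116 to 153 CPM in the libraries labelled deficient, with no overlap (0.36 ± 0.09 SE; adjusted p = 0.0982 in edgeR), and the difference was 0.22 ± 0.06 without libraries 2 and 3. Ryk, a receptor that binds Wnt proteins, went the other way without overlap, at 140 to 145 CPM against 123 to 132 CPM (-0.17 ± 0.05 SE; adjusted p = 0.109 in edgeR). Vangl1, a polarity protein, was at 0.31 ± 0.10 (SE) and overlapped. Ror2, a receptor for Wnt5a, was at 42.9 to 48.6 CPM in the controls and 43.1 to 66.6 CPM in the other group (0.15 ± 0.13 SE, and 0.02 ± 0.09 without libraries 2 and 3). Wls, the carrier that brings Wnt ligands to the cell surface, was at -0.07 ± 0.12 (SE), and at -0.26 ± 0.10 without them. In that fit 3 of the 18 genes were higher and 3 lower at an unadjusted p under 0.05, a threshold that 18.4% of all genes passed there.

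Of 17 secreted or membrane-bound modulators that carry other names, 14 were tested and 2 had an unadjusted p under 0.05, both lower. That was 14.3%, against 24.8% of all genes, with a median log2 difference of 0.17. Kremen1, a membrane partner of Dickkopf proteins, was at 147 to 216 CPM in the controls and 96.1 to 137 CPM in the libraries labelled deficient, with no overlap (-0.56 ± 0.15 SE; adjusted p = 0.101 in edgeR). Rspo3, an R-spondin that keeps Frizzled receptors at the surface, measured 124, 66.1, 94.0 and 118 CPM in the controls and 50.8, 29.4, 56.8 and 71.6 CPM in the other group, where library 4 alone reached into the control range (-0.94 ± 0.29 SE; adjusted p = 0.115 in edgeR). Rspo1 was at -0.19 ± 0.10 (SE). Frzb, a relative of the Sfrp genes that the name rule leaves out, was at 0.08 ± 0.15 (SE), and at 0.29 ± 0.12 without libraries 2 and 3. In that fit 2 of the 14 genes were higher and 2 lower at an unadjusted p under 0.05, against 18.4% of all genes.

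Intracellular and nuclear components numbered 30, all tested, and 9 higher and 5 lower had an unadjusted p under 0.05. That was 46.7%, against 24.8% of all genes, with a median log2 difference of 0.03. The groups did not overlap for 20% of the list, against 16.3% of all genes, and DESeq2 called 10%, against 14.2%. The median size of the difference in this list was 0.20 on the log2 scale, as over all genes. Dvl1, which relays the signal below Frizzled, was at 180 to 198 CPM in the controls and 149 to 169 CPM in the libraries labelled deficient (-0.23 ± 0.06 SE; adjusted p = 0.104 in edgeR). Bcl9l, a beta-catenin cofactor, was at 134 to 151 CPM against 159 to 224 CPM (0.37 ± 0.11 SE; adjusted p = 0.108), and it was 0.41 ± 0.13 without libraries 2 and 3. Its relative Bcl9 was at 188 to 225 CPM in the controls and at 236, 427, 386 and 220 CPM in libraries 1 to 4 labelled deficient, so that libraries 2 and 3 lay far above the rest (0.64 ± 0.22 SE, and 0.17 ± 0.09 without them). Celsr2, a polarity cadherin, had the largest difference of the list and the same pattern, at 83.4 to 121 CPM against 97.5, 215, 292 and 111 CPM (0.82 ± 0.34 SE, and 0.05 ± 0.14 without libraries 2 and 3). Celsr1 was at 0.50 ± 0.18 (SE), and at 0.20 ± 0.11 without them. In that fit 3 of the 30 genes were higher and 1 lower at an unadjusted p under 0.05, against 18.4% of all genes. Ctnnb1, the gene of beta-catenin itself, was at -0.0049 ± 0.089 (SE; 95% interval -0.21 to 0.20), and at -0.12 ± 0.08 without libraries 2 and 3.

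Of 21 transcriptional targets and feedback genes 19 were tested, with 6 positive and 13 negative differences (median -0.13). At an unadjusted p under 0.05 3 were higher and 2 lower (26.3%, against 24.8% of all genes). Msx2, a homeobox gene, measured 2.63, 3.67, 3.03 and 1.41 CPM in the controls and 6.23, 10.1, 9.79 and 11.5 CPM in the libraries labelled deficient, with no overlap (1.81 ± 0.31 SE; adjusted p = 0.0906 in edgeR). Sox9, a transcription factor of glands and other epithelia, was at 30.03 to 57.2 CPM against 64.3 to 130 CPM, also without overlap (1.24 ± 0.25 SE; adjusted p = 0.0906). Vcan, a matrix proteoglycan, was at 1.00 ± 0.32 (SE) and overlapped. Genes of feedback on beta-catenin signalling, picked here after their values were seen, lay on both sides of 0, and all overlapped between the groups. Axin2 was at 93.5 to 142 CPM in the controls and 78.7 to 130 CPM in the other group (-0.12 ± 0.18 SE, and -0.19 ± 0.24 without libraries 2 and 3), Lef1 at -0.15 ± 0.48 (SE), and the feedback inhibitors Nkd1, Nkd2 and Znrf3 at -0.58 ± 0.27, -0.72 ± 0.31 and -0.48 ± 0.17 (SE). Rnf43, the partner of Znrf3, was at 0.086 ± 0.117 (and -0.043 without libraries 2 and 3) and Tcf7 at 0.089 ± 0.175 (SE). Without libraries 2 and 3 Nkd1, Nkd2 and Znrf3 were at -0.31 ± 0.21, -0.37 ± 0.19 and -0.33 ± 0.14, and Lef1 at 0.48 ± 0.28, while Msx2 was at 1.73 ± 0.39, Sox9 at 1.501 ± 0.244 and Vcan at 1.08 ± 0.29. In that fit 3 of the 19 genes were higher and 0 lower at an unadjusted p under 0.05, against 18.4% of all genes. Sox9 and Msx2 have many other inputs, and whether any of these values follows from a Wnt ligand was not tested.

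**Figure D5:**
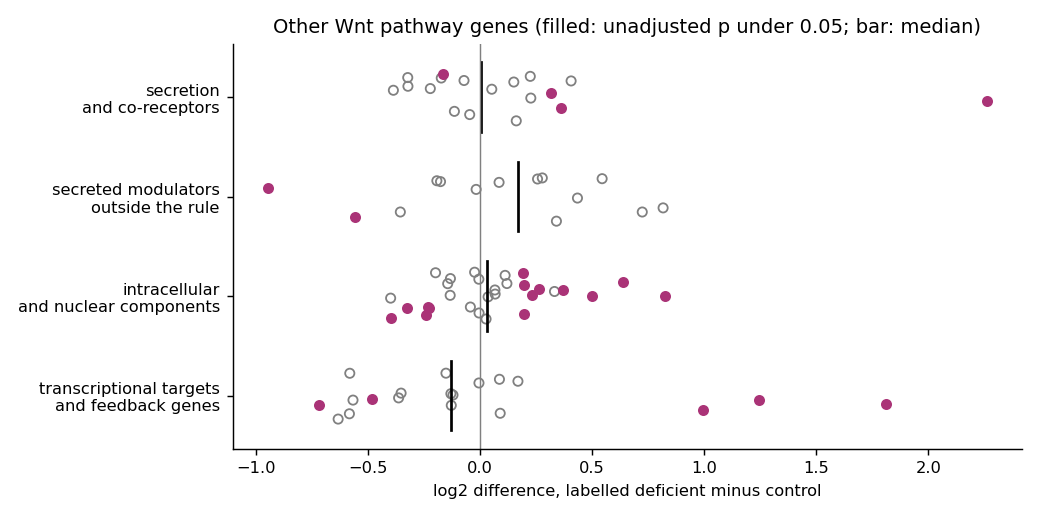
Log2 difference (labelled deficient minus control, horizontal axis) of each tested gene of the 4 pathway lists, with filled points for an unadjusted p under 0.05, open points for the rest and a bar at each list's median. The medians lie between -0.13 and 0.17, and single genes reach 2.26 (Lgr6, which overlapped between groups and was at 0.60 without libraries 2 and 3 labelled deficient) and -0.94 (Rspo3).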

How the data were processed

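RNA sequencing was done on 8 libraries of total RNA from mouse uterus, extracted with TRIzol per the labels' protocols. The authors deposited 1 table of whole-number counts per gene symbol, with no normalization. HISAT2 2.2.1, HTSeq 0.10.0 and genome build mm10 are named, per the submitters' processing notes; the sources used here do not give the strand setting. Column names were matched to sample titles, and no library was a copy of another (smallest chi-square per degree of freedom 48.8). Coordinates come from a RefSeq table of GRCm38.p6, which held all 38 family genes. Transcript lengths were not used here, so levels are not compared between genes.

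Counts were filtered with filterByExpr (17629 genes left), scaled by TMM and tested with edgeR 4.0.16 (glmQLFit, glmQLFTest; R 4.3.3), fitting a single group effect, and p-values were adjusted over all genes by Benjamini-Hochberg at 0.05. SE was taken from the difference and its F value. Alternatives were DESeq2 1.42.0, limma-voom (limma 3.58.1), DESeq2 size factors, library totals, no filter, the replicate number as a block, and each library left out. Libraries 2 and 3 labelled deficient were also left out together. This pair was picked from its values in these data, and the fit without it has 2 libraries labelled deficient. DESeq2 without libraries and the pathway genes without libraries 2 and 3 were added after seeing the data. So were marker sums without Prss28 and Prss29 (gland), Alpl (decidual) or Krt19 (mesothelium), genes picked for their values in these libraries. The code was tested on simulated counts. The family genes and lists were chosen with earlier results of these data known. Genes described singly are the 3 with the highest mean CPM of each family, those with an unadjusted p under 0.05 and those whose groups do not overlap, and the 3 of each pathway list with the smallest p; others named were chosen after their values were seen. The library totals of 70296369 to 72364750 counts leave counting error small except for genes under about 1 CPM.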

Additional observations from a re-analysis of the deposited data

Results flagged for a closer look

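A single library lay far from the other 3 of its group, by Dixon's test on CPM, in 7 of the 58 groups of 4 examined (29 genes, 2 groups). Chance flags about 1 in 20 groups. In the group labelled deficient, Dkkl1 was at 16.4 CPM in library 2 against 0.636 to 2.54 CPM in the others. Fzd6 was at 129 CPM in library 2 against 168 to 173 CPM, and Fzd10 at 55.8 CPM in library 3 against 7.66 to 15.8 CPM. Among the controls, Fzd8 was at 10.2 CPM in library 1 against 11.8 to 12.1 CPM, and Sfrp5 at 0.324 CPM in library 2 against 0.578 to 0.630 CPM. Wnt10b was at 0.0958 CPM (7 counts) in control library 3 against 0.423 to 0.482 CPM, and Wnt8b at 1.23 CPM in control library 4 against 0.725 to 0.790 CPM. The Wnt8b control that stands out lies farther from the group labelled deficient, and without it the log2 difference was -2.22 with the groups still apart.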

How the results depend on the processing

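Over 15 alternatives, 407 of 435 log2 differences of the 29 genes kept their sign and 28 did not; 18 genes never changed sign. Wnt5a ranged from 0.70 to 0.95, Wnt2 from -1.66 to -1.29, Wnt8b from -2.77 to -2.17 and Fzd5 from 0.32 to 0.45 when each library was left out. Genes called by edgeR (0) became 2488 in DESeq2, 2 in limma-voom and 0 to 2 without 1 library; family genes called (0) became 5 in DESeq2. Family genes at an unadjusted p under 0.05 (4 higher, 4 lower) came to 2 higher and 5 lower in limma-voom. Without 1 library they came to 2 to 5 higher and 2 to 5 lower, while all genes at that threshold (4372) came to 2896 to 5471. DESeq2 without 1 library called 927 to 3961 genes and 3 to 9 family genes, and 1461 genes without libraries 2 and 3 labelled deficient. It called Wnt5a, Wnt2 and Wnt8b in each of these fits. Its Dkkl1 call was lost without control library 1, 3 or 4 (adjusted p 0.062, 0.0674 and 0.0875), and without control library 3 or 4 it called 3 family genes. Dkkl1 was also not called without library 2 or library 3 labelled deficient, or without both.

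The sign changed for Fzd4 with library totals (-0.034) and with no filter (-0.00022), and for Sfrp1 in limma-voom (-0.0076). Without libraries 2 and 3 labelled deficient it changed for Dkkl1 (-0.016, and -0.017 in DESeq2), Sfrp4 (-0.27), Wnt11 (0.72), Wnt4 (-0.41), Wnt5b (-0.077), Wnt6 (0.13) and Wnt9a (0.053). Without 1 library the range was -0.065 to 0.052 for Fzd4, -0.16 to 0.25 for Sfrp1, -0.85 to 0.27 for Wnt11, -0.27 to 0.11 for Wnt9a, -0.16 to 0.42 for Wnt10b, -0.014 to 0.31 for Sfrp4, -0.035 to 0.17 for Wnt5b and -0.13 to 0.28 for Fzd2. The cause was not tested.

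Same-numbered libraries of the 2 groups did not deviate together (correlations 0.21, 0.25, -0.01 and -0.08 across genes), and only library 2 correlated best with its own number. With the replicate number as a block, edgeR called 23 genes and none of the family, and Sfrp1 was at -0.012. In that fit 7 of the 29 family genes were lower at an unadjusted p under 0.05, against 4 in the main fit. Of all genes 24.6% passed it in that fit, but in either direction, so this share is no background for a lower-only count. In the main fit 11.8% of all genes were lower at that threshold.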
